A study of Mus musculus with 4 samples.

Results

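Replication-dependent histone mRNAs are made in S phase, when new DNA has to be packed into nucleosomes, and they are the animal mRNAs that end in a conserved stem-loop instead of a poly(A) tail. NPAT is the coactivator that brings the cyclin E and CDK2 signal to the histone gene clusters, and CASP8AP2 (also called FLASH) gathers at the same nuclear bodies and recruits the cleavage factors to the U7 snRNP. LSM10 and LSM11 form the part of the U7 snRNP ring that distinguishes it from the spliceosomal rings. SLBP binds the stem-loop and stays with the mRNA through cleavage, export and translation, and ERI1 is the 3′-to-5′ exonuclease that trims the stem-loop and takes part in the decay of histone mRNA when DNA synthesis stops.

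The 6 genes *Npat*, *Casp8ap2*, *Lsm10*, *Lsm11*, *Slbp* and *Eri1* were chosen by name for these roles, from the 53465 genes listed, and all 6 passed the filter on low values. Long RNA-seq of mouse female germline stem cells (FGSCs), a cultured cell line from the ovary, was available for a control shRNA (shNC) and an shRNA against *Nat10* (shNAT10), with 2 libraries per group and 4 libraries in all. Both shRNAs were delivered by lentivirus, and infected cells were kept by drug selection. NAT10 is the acetyltransferase that writes N4-acetylcytidine (ac4C) on RNA. The methods place the mice of the study on a C57BL/6J background, while which *Nat10* shRNA was used for these libraries and the age and strain of the animals from which the cell line came are not given in the sources used here. The study calls the 2 libraries of a group biological replicates without saying whether they came from separate cultures, so the p-values measure the spread between these libraries, part of which may be technical. In bulk RNA a smaller share of cells that express a gene and less RNA per cell cannot be told apart.

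The deposited values are FPKM, fragments per kilobase of exon, scaled to the depth of the library. Between 11057916 and 14902407 fragments on genes per library were recovered from them. The share on rRNA-related loci was 40.1% and 31.0% in shNC and 19.3% and 21.2% in shNAT10 libraries. Values with the libraries scaled to equal totals outside these loci are given at the end. *Nat10* itself had 7.79 and 5.42 FPKM in shNC against 2.95 and 3.04 FPKM after knockdown, a log2 fold change of -1.09 (SE, the standard error, 0.21; adjusted p = 0.123 by limma). Without shNAT10-1 (-1.07) or without shNAT10-2 (-1.11) *Nat10* no longer passed the threshold. The label of the cells was checked on 10 germline stem cell markers, of which *Sall4*, *Tfap2c*, *Dppa3*, *Pou5f1* and *Dazl* were listed at 0 in all 4 libraries and *Ddx4* had 2 fragments in total. The summed FPKM of the 10 germline markers was 9.85 and 22.8 in shNC and 28.0 and 34.4 in shNAT10. *Ifitm3* alone gave 9.29, 22.2, 27.1 and 33.6 FPKM of these sums, did not pass the threshold, and is also an interferon-induced gene, and each of the other 9 markers stayed under 1 FPKM.

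Markers of blood cells were present. The 5 pan-leukocyte markers summed to 231 and 259 FPKM in shNC against 203 and 212 FPKM in shNAT10, and 3 of them fell, *Fcer1g* (log2 fold change -1.01), *Laptm5* (-0.64, and -0.34 without shNC-1) and *Tyrobp* (-0.44), while *Ptprc* (-0.01) and *Coro1a* (-0.04) did not pass. The 5 macrophage markers summed to 48.1 and 52.9 FPKM in shNC against 38.1 and 43.3 FPKM in shNAT10, mostly from *Adgre1*, which fell (-0.37), while *Lyz2*, at a low level, rose (1.35). The 5 mast cell markers summed to 246 and 263 FPKM in shNC against 276 and 271 FPKM in shNAT10. Nearly all of it was *Cpa3* (245 and 262 FPKM against 272 and 267 FPKM, not past the threshold), *Fcer1a* and *Tpsb2* were at 0, and *Ms4a2* rose from a low level (2.12). The 5 markers of proliferating cells summed to 74.0 and 58.1 FPKM in shNC against 85.3 and 81.1 FPKM in shNAT10, and of these *Top2a* rose (0.30). The 5 fibroblast markers summed to 44.2 to 59.5 FPKM with overlapping groups, *Pdgfra* rising among them (0.83), and 5 granulosa cell markers to 0.114 to 0.485 FPKM. These calls are by limma without adjustment. With each library left out in turn, those of *Fcer1g* and *Top2a* held in all 4 fits, and those of *Laptm5*, *Tyrobp*, *Adgre1*, *Lyz2*, *Ms4a2* and *Pdgfra* were lost in at least 1. The part of the marker genes in the results on the 6 factors, their pathway and the histone genes was not tested.

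The groups were compared with limma on log2(FPKM + 0.1) over 20116 genes, those whose mean FPKM reached 0.1, two-sided, and a gene passed when it differed by over 1.2-fold with an unadjusted p of at most 0.05. Log2 fold changes (log2 ratios of shNAT10 over shNC) on this scale understate the change of low genes. At this threshold 8.41% of all genes tested were higher and 7.83% lower in shNAT10, 16.2% in either direction, and 0.437% had a Benjamini-Hochberg adjusted p under 0.05. A single gene in 2 libraries against 2 cannot have an exact permutation p under 0.3333, which is the value for every factor whose groups did not overlap.

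Of the 6 factors, *Casp8ap2* rose in shNAT10, and *Npat*, *Lsm10*, *Lsm11*, *Slbp* and *Eri1* did not pass the threshold. *Casp8ap2* rose 1.55-fold, while the FPKM of *Npat* differed by 1.02-fold between the groups. For 5 of the 6 factors both shNAT10 libraries lay above both shNC libraries, a pattern seen in 23.9% of all genes tested, with the opposite pattern in 24.1%. Their median log2 fold change was 0.15, against 0.01 over all genes tested. Counts and median are given as a description of the 6 genes, with no test of the group, and the differences between the 6 genes were not tested.

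**Figure D1:**
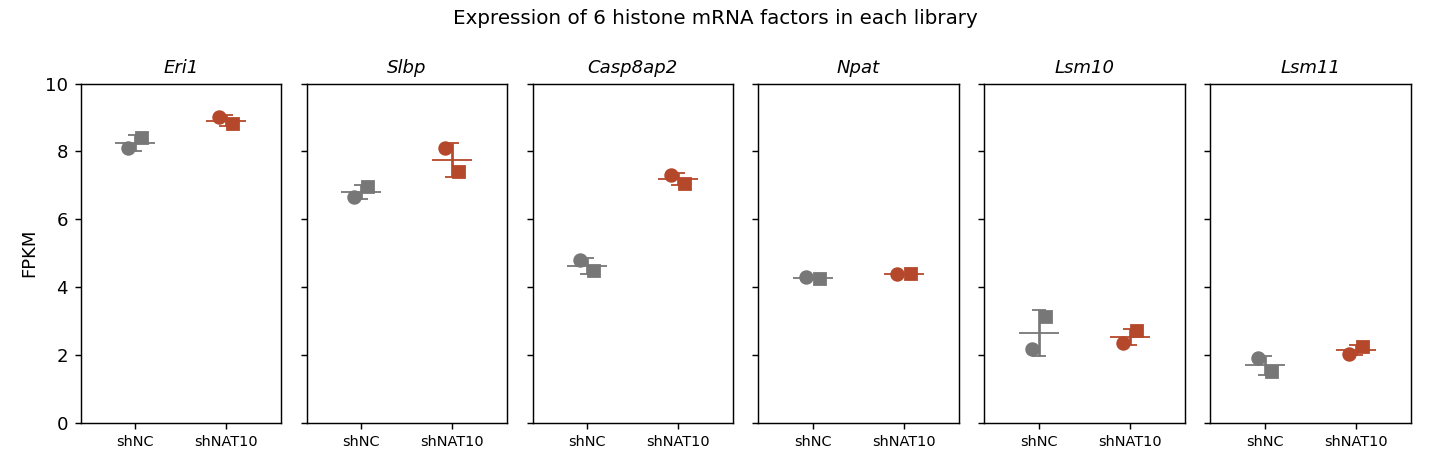
FPKM (vertical axis, linear from 0) of the 6 factors in the 2 shNC libraries (grey) and the 2 shNAT10 libraries (red-brown), with circles for replicate 1, squares for replicate 2 and the mean ± SD beside them. *Casp8ap2* stands at 4.47 to 4.79 FPKM in shNC and 7.05 to 7.31 FPKM in shNAT10, while the *Npat* points lie within 4.25 to 4.37 FPKM and the *Lsm10* groups overlap.

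Transcription of the histone genes depends on NPAT. *Npat* is on chromosome 9 of GRCm38 (mm10), plus strand, from 53537047 to 53574342. Its FPKM was 4.29 and 4.25 in shNC and 4.37 and 4.37 in shNAT10, from 315 to 419 fragments per library. All 4 values lay close together, and the shNAT10 pair was above the shNC pair by a small margin. The log2 fold change was 0.03 (SE 0.12, adjusted p = 0.912 by limma), with a 95% interval of the difference from -0.27 to 0.34. Counting error alone was 4.89% to 5.63% of each value, larger than the difference between the means of the groups.

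*Npat* and *Atm*, the kinase that answers DNA double-strand breaks, start next to each other on opposite strands, with 307 bases between their annotated 5′ ends. *Atm* had 5.79 and 5.30 FPKM in shNC against 7.22 and 6.40 FPKM in shNAT10 libraries (log2 ratio 0.29, SE 0.13, adjusted p = 0.351 by limma). The *Atm* groups did not overlap, and *Atm* did not pass the threshold.

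*Casp8ap2* is on chromosome 4, plus strand, from 32615451 to 32653265. Its FPKM was 4.79 and 4.47 in shNC and 7.31 and 7.05 in shNAT10, from 384, 362, 626 and 738 fragments. Both shNAT10 libraries were well above both shNC libraries, and the libraries within a group lay close together (4.63 ± 0.228 in shNC and 7.18 ± 0.180 in shNAT10, SD, n = 2). The log2 fold change was 0.62 (SE 0.11, 95% interval 0.33 to 0.92), with an unadjusted p of 0.00338 and an adjusted p = 0.117 by limma. *Casp8ap2* thus passed the threshold without adjustment and missed it after adjustment over all genes. Leaving out each library in turn kept the value between 0.57 and 0.67. *Casp8ap2* passed in these 4 fits, in each of which 1 group has a single library, assumed to vary like the pair of the other group. On the recovered fragments limma-voom gave an adjusted p = 0.00285 for *Casp8ap2*, at a threshold that 7.88% of genes passed in that fit. Over all alternatives the adjusted p of *Casp8ap2* by limma or limma-voom ranged from 0.00285 to 0.480. Of all genes tested, 86.0% had a lower log2 fold change.

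The 250 bases before the start of *Casp8ap2*, the factor that rose, are shown as RefSeq gives them for GRCm38.p6 (chr4:32615220-32615469, plus strand), with the words of the motif search in capitals. The RefSeq start at 32615470 is 19 bases downstream of the GENCODE start given above, so the last 19 bases shown lie inside the gene as GENCODE annotates it.

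Casp8ap2: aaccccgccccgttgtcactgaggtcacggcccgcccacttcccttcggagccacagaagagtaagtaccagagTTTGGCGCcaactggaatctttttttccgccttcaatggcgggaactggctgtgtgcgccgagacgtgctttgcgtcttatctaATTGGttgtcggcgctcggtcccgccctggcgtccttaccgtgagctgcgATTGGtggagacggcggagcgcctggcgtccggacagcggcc

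RefSeq promoter windows, 300 bases around the start, were found for 5 of the 6 factors, and were searched on both strands for the E2F words TTTCCCGC, TTTCGCGC, TTTGCCGC and TTTGGCGC and for CCAAT, whose matches do not overlap here. The *Casp8ap2* window holds an E2F word at position -176 from the RefSeq start, from which all positions here are counted, as do 2.26% of all 32851 windows, and those of *Npat*, *Slbp*, *Lsm10* and *Lsm11* hold none of these letters. CCAAT or its reverse complement ATTGG is in the windows of 4 of the 5 factors, at -92 and -42 in *Casp8ap2* and at -215 and -47 in *Npat*, and in 37.4% of all windows. These matches describe letters in a window and not bound sites.

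By a root mean square difference of the centred log2(FPKM + 0.1) over the 4 libraries, the genes nearest to *Casp8ap2* among 9713 protein-coding genes were *Gm14410* (0.0153), *Zfand1* (0.0165) and *Ckap2* (0.0203). *Ckap2*, a spindle and microtubule protein, had 1.01 and 0.969 FPKM in shNC against 1.61 and 1.52 FPKM in shNAT10. Within a difference of 0.1 lay 229 genes, and the differences of the nearest 3 are below the counting error of *Casp8ap2*, so the profile over 4 libraries does not single out particular genes.

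The U7 snRNP cuts the histone pre-mRNA downstream of the stem-loop. Its RNA, the product of *Rnu7*, carries the Sm-type site on which the ring with LSM10 and LSM11 assembles. It is shown as annotated in GENCODE M21 (chr6:124741225-124741286, minus strand, 62 nt), with that site, positions 21 to 31 from the 5′ end, in capitals.

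Rnu7: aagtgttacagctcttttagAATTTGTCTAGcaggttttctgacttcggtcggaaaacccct

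*Rnu7* was listed at 0 in all 4 libraries, so the RNA of the particle was not measured here. *Lsm10* is on chromosome 4, plus strand, from 126096623 to 126098584. Its libraries had 2.17 and 3.13 FPKM in shNC against 2.37 and 2.70 FPKM in shNAT10. Both shNAT10 values lay between the shNC values, and the log2 fold change was -0.04 (SE 0.23, 95% interval -0.64 to 0.56, adjusted p = 0.947 by limma, exact permutation p = 1.0). These values rest on 24, 35, 28 and 39 fragments, with a counting error of 16.0% to 20.4%, so the difference between the groups in *Lsm10*, which is smaller than this error, was not detectable at this depth. The sign of *Lsm10* turned to 0.21 without shNC-2 and to 0.05 without shNAT10-1, and it was -0.30 with shNC-1 left out.

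*Lsm11* lies on the minus strand of chromosome 11 from 45928269 to 45944935. It had 1.90 and 1.49 FPKM in shNC against 2.04 and 2.24 FPKM in shNAT10, from 114 to 222 fragments per library. The shNAT10 libraries were above the shNC libraries, and the gap between the groups was narrower than the gap between the shNC libraries. The log2 fold change was 0.33 (SE 0.20, 95% interval -0.19 to 0.85, adjusted p = 0.493 by limma), and it ranged from 0.16 without shNC-2 to 0.50 without shNC-1.

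SLBP and ERI1 both act on the stem-loop. It was searched for in the annotated transcripts as a pattern of letters, with a stem of 6 base pairs and a loop of 4 bases. A stem-loop whose letters depart from the pattern was not counted. Of 64 replication-dependent histone genes, 53 have an annotated 3′ UTR in GENCODE M21 and 33 hold a match to the pattern. The match was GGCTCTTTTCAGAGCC for 26 genes and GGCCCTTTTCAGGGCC for 7 genes. The search of 141767 transcripts found a match in 3 transcripts outside these genes. To show what SLBP and ERI1 bind, the gene of highest mean FPKM with a match is given for each histone class. These genes were chosen after the values were seen. The stem-loop is in capitals, with 5 bases on either side.

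Hist1h1c: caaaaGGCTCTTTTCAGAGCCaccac
Hist1h2ab: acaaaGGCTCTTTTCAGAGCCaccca
Hist1h2bg: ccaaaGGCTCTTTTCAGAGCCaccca
Hist1h3a: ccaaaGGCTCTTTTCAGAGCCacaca
Hist1h4h: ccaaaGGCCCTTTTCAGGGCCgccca

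The stem-loops of *Hist1h1c* (23739512 to 23739527), *Hist1h2ab* (23751572 to 23751587), *Hist1h2bg* (23571843 to 23571858) and *Hist1h4h* (23531458 to 23531473) lie on the plus strand of chromosome 13 of GRCm38, and that of *Hist1h3a* (23761890 to 23761905) on its minus strand. All 5 are in 3′ UTRs.

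*Slbp* lies on the minus strand of chromosome 5 from 33634952 to 33652574. Its FPKM was 6.66 and 6.96 in shNC and 8.12 and 7.41 in shNAT10, from 475 to 690 fragments per library. The shNAT10 libraries were the higher ones, and they differed from each other by more than the shNC libraries did. The log2 fold change was 0.19 (SE 0.11, 95% interval -0.11 to 0.48, adjusted p = 0.489 by limma), and it was 0.12 without shNAT10-1 and 0.25 without shNAT10-2. An overlapping feature on the plus strand, *Gm10459*, shares 474 exon bases with *Slbp*, and its fragments came to 11.9% to 15.5% of those of *Slbp* per library. *Gm10459* had 4.79 and 5.47 FPKM in shNC against 6.62 and 4.63 FPKM in shNAT10, with overlapping groups. No source says whether strand was used in counting, so the division of fragments between *Gm10459* and *Slbp* is uncertain.

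*Eri1* is on chromosome 8, minus strand, from 35465253 to 35496196. Its libraries had 8.09 and 8.41 FPKM in shNC against 9.03 and 8.80 FPKM in shNAT10. *Eri1* was the most deeply covered of the 6 factors, with 843 to 1196 fragments per library and a counting error of 2.89% to 3.44%. The shNAT10 libraries were above the shNC libraries by a narrow gap. The log2 fold change was 0.11 (SE 0.10, 95% interval -0.15 to 0.37, adjusted p = 0.610 by limma), between 0.08 and 0.14 with each library left out. The interval of *Eri1* is narrower than those of the other 5 factors.

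The order of the factors by level, that is by mean FPKM over the 4 libraries, was *Eri1* (8.58), *Slbp* (7.28), *Casp8ap2* (5.90), *Npat* (4.32), *Lsm10* (2.59) and *Lsm11* (1.92). The ranges of *Eri1* and *Slbp* over the libraries overlapped, as did those of *Slbp* and *Casp8ap2* and of *Lsm10* and *Lsm11*. *Casp8ap2* and *Npat*, and *Npat* and *Lsm10*, did not overlap. The FPKM of *Slbp* are per kilobase of all its annotated exons, 6076 nt over 9 transcripts, of which 4 are retained-intron transcripts, whereas its longest protein-coding transcript has 1906 nt. For *Eri1* these lengths are 8868 nt and 5079 nt. Per kilobase of the longest coding transcript, an alternative chosen after seeing the data, the mean level was 23.2 for *Slbp* and 15.0 for *Eri1*, which reverses their order, while the order of *Casp8ap2* (5.93), *Npat* (4.45), *Lsm10* and *Lsm11* was kept. By this length the ranges of *Casp8ap2* (4.49 to 7.34) and *Npat* (4.38 to 4.51) overlapped. The length is the same in every library, so it leaves the fold changes as they are.

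**Figure D2:**
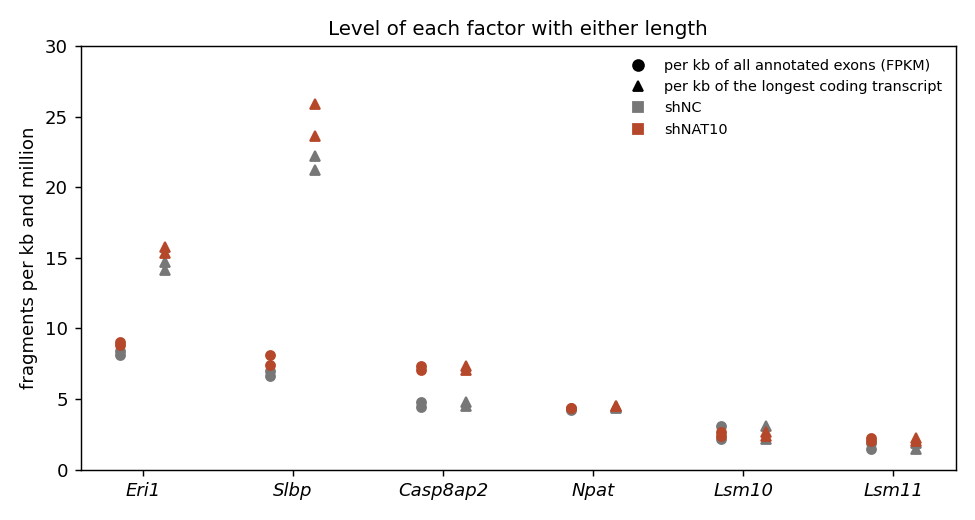
Level of each factor in every library, per kilobase of all annotated exons (circles, the deposited FPKM) and per kilobase of the longest coding transcript (triangles), for shNC (grey) and shNAT10 (red-brown), on a linear axis from 0. *Slbp* moves from 6.66 to 8.12 to between 21.2 and 25.9 and passes *Eri1*, while *Lsm10* and *Lsm11* do not move.

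Genes that act with the 6 factors were grouped by role, 47 genes of which 46 were tested and *Zfp473* was too low. Of these, 11 were higher in shNAT10 and 0 lower (23.9%, against 8.41% of all genes tested), and 35 did not pass. By limma without the trend 5 were higher, beside 1536 over all genes tested. With equal totals outside the rRNA-related loci 17 were higher, beside 2378 over all genes tested. None (0 of 46) had an adjusted p under 0.05 by limma, while 5 had one by limma-voom, *Ccne2*, *Ncbp2*, *Dcp2*, *Ccna2* and *Ccnf*. The count depended on the libraries, with 9 higher without shNC-1, 9 without shNC-2, 2 without shNAT10-1 and 1 without shNAT10-2. In each of these fits a single library is assumed to vary like the pair of the other group, so a call depends on the spread of that pair. Each of the 11 genes lost its call in at least 2 of the 4 fits. Cyclins and their kinases made up 5 of the 11, out of 6 tested, and the other 40 genes held 6 (15.0%).

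**Figure D3:**
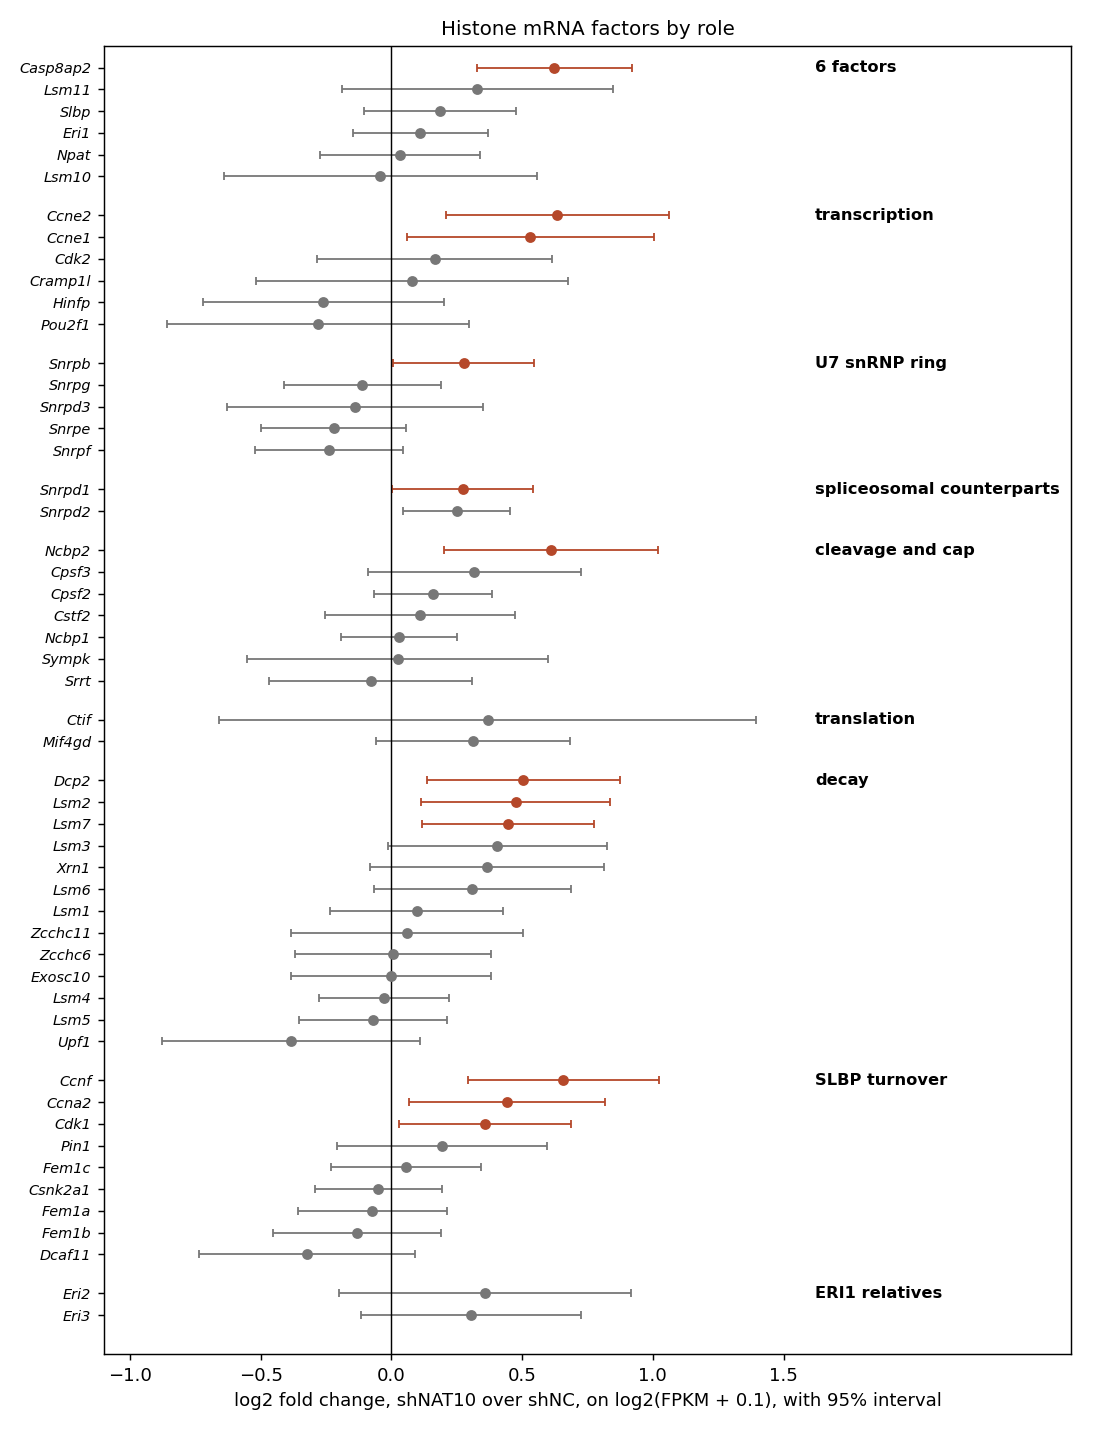
Log2 fold change of shNAT10 over shNC (horizontal axis, on log2(FPKM + 0.1)) with its 95% interval by limma for the 6 factors and the 46 tested genes that act with them, by role, with genes past the threshold in red-brown. *Casp8ap2* is the only one of the 6 factors in red-brown, 3 of the 13 decay genes and 1 of the 5 genes of the U7 ring are, and no gene past the threshold lies below 0.

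Among the 6 transcription genes, those of the cyclins that drive CDK2 onto NPAT rose. *Ccne2* had 13.6 and 17.5 FPKM in shNC against 22.2 and 26.0 FPKM in shNAT10 libraries (log2 ratio 0.63, adjusted p = 0.189 by limma), and *Ccne1* had 5.50 and 4.05 in shNC and 6.73 and 7.01 in shNAT10 (0.53, adjusted p = 0.262 by limma, and 0.32 without shNC-2). *Hinfp*, the zinc finger activator of histone H4 genes that binds NPAT, had 1.93 and 1.73 FPKM in shNC against 1.54 and 1.48 FPKM in shNAT10 libraries (log2 ratio -0.26, adjusted p = 0.539 by limma) and did not pass.

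The U7 ring shares 5 Sm proteins with the spliceosome, and of their genes *Snrpb* rose (32.7 and 32.8 FPKM in shNC, 36.9 and 42.6 FPKM in shNAT10, log2 fold change 0.28, adjusted p = 0.292 by limma, and 0.17 without shNAT10-2). The median log2 fold change of these 5 genes was -0.14, and -0.04 with equal totals outside the rRNA-related loci, where the median of all genes was 0.10. *Snrpd1* and *Snrpd2* encode the proteins whose places LSM10 and LSM11 take in the U7 ring. *Snrpd1* rose, with 64.8 and 71.1 FPKM in shNC against 86.7 and 77.5 FPKM in shNAT10 (0.27, adjusted p = 0.298 by limma), a call that was lost in each of the 4 fits with a library left out. *Snrpd2* had 31.2 and 31.2 FPKM in shNC against 37.5 and 36.8 FPKM in shNAT10 (0.25, adjusted p = 0.240 by limma), below the fold change of the threshold. In every library both were present at several times the FPKM of *Lsm10* and *Lsm11*.

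Of the 7 tested genes for cleavage and the cap, *Ncbp2*, the cap-binding subunit of the nuclear cap-binding complex, rose, with 8.09 and 10.6 FPKM in shNC against 14.3 and 14.0 FPKM in shNAT10 (log2 ratio 0.61, adjusted p = 0.188 by limma). In translation, *Mif4gd*, which encodes the SLBP-interacting protein that links SLBP to the translation machinery, had 3.30 and 3.86 FPKM in shNC against 4.56 and 4.35 FPKM in shNAT10 (0.31, adjusted p = 0.370 by limma, and 0.20 without shNC-1) and did not pass, nor did *Ctif*.

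Decay of histone mRNA begins with uridylation and the LSM1 to LSM7 ring. Of 13 decay genes 3 rose, *Lsm2* (0.47, adjusted p = 0.218), *Lsm7* (0.44, adjusted p = 0.213) and *Dcp2*, the decapping enzyme (0.50, adjusted p = 0.211), all by limma. *Dcp2* had 3.08 and 3.61 FPKM in shNC against 4.72 and 4.83 FPKM in shNAT10. *Upf1*, the helicase that SLBP recruits for decay, had 2.84 and 2.37 FPKM in shNC against 1.79 and 2.15 FPKM in shNAT10 libraries (log2 ratio -0.39, adjusted p = 0.399 by limma) and did not pass. The ERI1 relatives *Eri2* and *Eri3* did not pass either.

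Of 9 genes for the turnover of SLBP 3 rose. CCNF is the F-box protein that targets SLBP for degradation in G2, and cyclin A with CDK1 phosphorylates SLBP at the end of S phase. *Ccnf* rose, with 6.04 and 5.06 FPKM in shNC against 8.36 and 9.22 FPKM in shNAT10 (log2 ratio 0.66, adjusted p = 0.143 by limma), with groups that did not overlap. *Ccna2* (0.44, adjusted p = 0.247) and *Cdk1* (0.36, adjusted p = 0.272) also rose by limma, with 0.26 for *Ccna2* and 0.22 for *Cdk1* without shNC-2. By western blotting the paper found less cyclin A2 protein after *Nat10* knockdown, so for this cyclin RNA and protein differ in direction.

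The histone genes themselves were compared as the mRNAs on which the 6 factors act. Of 64 replication-dependent histone genes, 62 were tested, 58 were higher in shNAT10 and 0 lower, with a median log2 fold change of 1.33. The share higher was 93.5%, against 8.41% of all genes tested. An adjusted p under 0.05 was reached by 24 of the 62 by limma and by 58 by limma-voom. Over all genes tested these shares were 0.437% by limma and 7.88% by limma-voom. *Hist2h2ab*, *Hist2h2be*, *Hist2h3c2* and *Hist3h2a* did not pass. Most replication-dependent histone mRNA has no poly(A) tail, and the labels describe poly(A) isolation while the methods describe rRNA depletion, so whether these values stand for all histone mRNA or for its polyadenylated part is not known. The summed FPKM of the 64 genes was 8721 and 8841 in shNC and 21772 and 19963 in shNAT10, a ratio of 2.38, beside a ratio of 1.55 for *Casp8ap2* and 0.957 to 1.26 for the other 5 factors. *Hist1h1a* (1.90), *Hist1h2ai* (1.45), *Hist1h2bb* (1.37), *Hist1h3e* (1.09) and *Hist1h4k* (0.94) were the genes of highest mean FPKM in each class. Their annotated transcripts hold no match to the stem-loop pattern, and those of *Hist1h2ai* and *Hist1h4k* have no annotated 3′ UTR. This does not show that their mRNAs lack a stem-loop. *Hist1h1a*, for a linker histone, had 434 and 330 FPKM in shNC against 1400 and 1419 FPKM in shNAT10, and *Hist1h4k*, for histone H4, 906 and 814 FPKM in shNC against 1717 and 1583 FPKM in shNAT10. Without shNAT10-1 *Hist1h4k* did not pass. Histone genes of a class are near-identical copies, so the values of single genes are uncertain. With a match to the stem-loop pattern in the annotation, 29 of 31 tested genes were higher (median log2 fold change 1.45), and without one 29 of 31 (median 1.24). This split is by annotation, and genes without a match may still have a stem-loop. For the genes printed above, the log2 fold change was 1.16 for *Hist1h1c*, 1.59 for *Hist1h2ab*, 1.19 for *Hist1h2bg*, 1.46 for *Hist1h3a* and 1.19 for *Hist1h4h*, each past the threshold.

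A list of 24 S-phase genes, from the MCM helicase to the chromatin assembly factor CAF-1, held 14 genes that were higher and 0 lower, with log2 fold changes from 0.11 to 0.84 and a median of 0.44. These 14 are 58.3% of the list, against 8.41% higher over all genes tested, and 0 of the 24 had an adjusted p under 0.05 by limma, while 13 had one by limma-voom. All 24 had shNAT10 libraries above shNC libraries, as 23.9% of all genes tested had. *Casp8ap2* (0.62) lies within this range, as do *Slbp* (0.19) and *Lsm11* (0.33), while *Eri1* (0.11), *Npat* (0.03) and *Lsm10* (-0.04) lie at or under its lower end. These lists share the 4 libraries with the factors and were not tested against them.

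**Figure D4:**
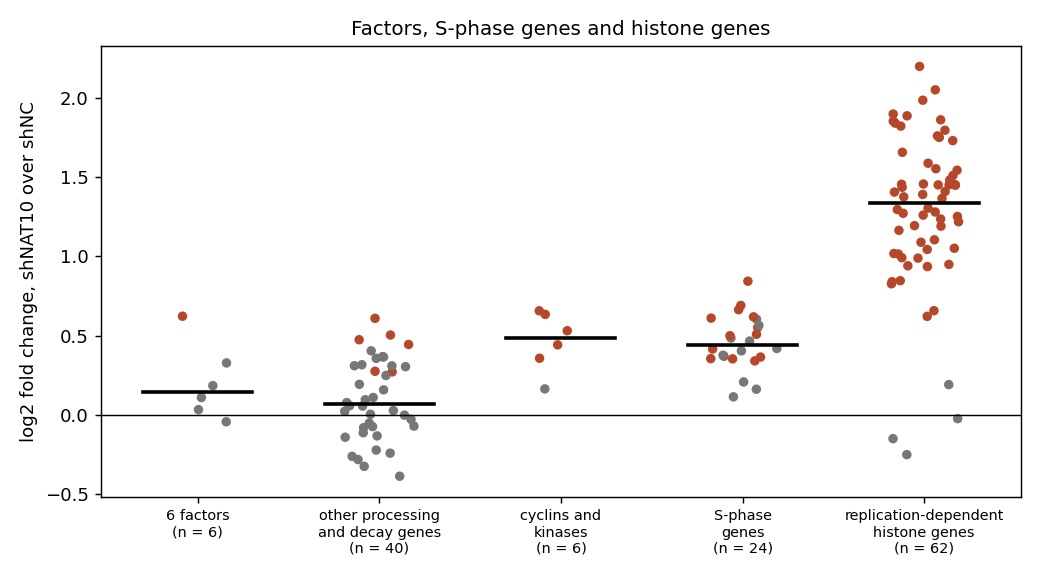
Log2 fold change of shNAT10 over shNC (vertical axis, linear) for the 6 factors, the other processing and decay genes, the cyclins and kinases, the S-phase genes and the replication-dependent histone genes, with 1 point per tested gene, bars at the medians and genes past the threshold in red-brown. The medians are 0.15 for the 6 factors, 0.44 for the S-phase genes and 1.33 for the histone genes.

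Scaling of the libraries to each other was varied. With the libraries scaled to equal totals outside the rRNA-related loci, the median over all genes moved to a log2 fold change of 0.10 and that of the 6 factors to 0.24. Over all genes this scaling called 2378 genes higher and 1024 lower, in place of 1691 and 1576. *Casp8ap2* was then at 0.72, *Lsm11* at 0.42, *Slbp* at 0.28, *Eri1* at 0.21, *Npat* at 0.13 and *Lsm10* at 0.05, and *Casp8ap2* was still the only one of the 6 past the threshold.

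**Figure D5:**
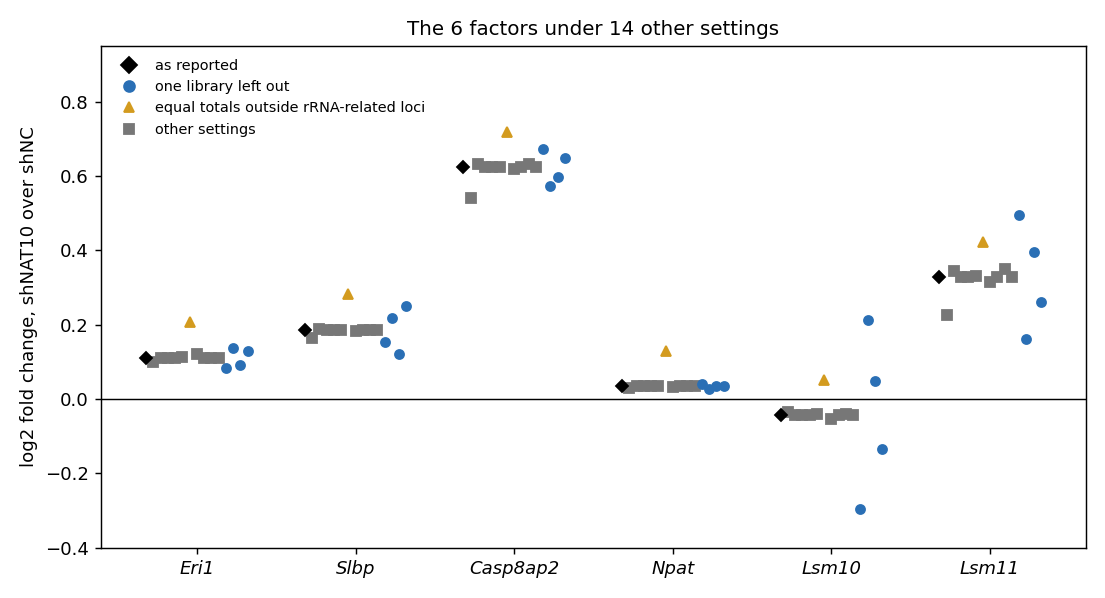
Log2 fold change of each factor (vertical axis, linear) as reported (black), with each library left out in turn (blue), with equal totals outside the rRNA-related loci (gold) and under the other settings (grey). *Casp8ap2* stays between 0.54 and 0.72, *Npat* between 0.03 and 0.13, and *Lsm10* lies on both sides of 0.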

How the data were processed

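The authors sequenced Long RNA-seq libraries of shNC and shNAT10 FGSCs, and the labels name mm10, cutadapt, HISAT2 and DESeq2. The counter, annotation and strand setting are not given in the sources used here. The methods describe rRNA depletion, and the labels describe isolation of poly(A) mRNA, so the records differ. The authors deposited FPKM for 53465 genes. A second deposited table with the authors' own fold changes and p-values was not used. Columns of single libraries left out numbered 0.

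Fragments were recovered from FPKM and the GENCODE M21 exon length, and 96.0% to 96.6% of values under 50 came within 0.02 of a whole number. Intervals and the floor of 3 fragments cover counting error only. Groups came from the labels. Limma 3.58.1 in R 4.3.3 (lmFit, eBayes with trend) was fitted over all genes, and p-values were adjusted by Benjamini-Hochberg. The fit was also run on simulated fragments with a single fixed spread, and the outcome is not given here. Replicate numbers paired no libraries by design. Named are all 6 factors, genes of their pathway past the threshold or whose product binds a factor, *Atm*, and the highest histone gene per class. The factors and lists were chosen with earlier results of these data known. *Rnu7*, *Ddx4*, *Ctif*, *Eri2*, *Eri3* and the genes whose stem-loops are printed were named besides. Alternatives were other pseudocounts, filters and scalings, limma without trend, limma-voom, a replicate block and each library left out.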

Additional observations from a re-analysis of the deposited data

How the results depend on the processing

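Under 14 other settings *Casp8ap2* kept its direction and its call, and *Slbp*, *Lsm11*, *Eri1* and *Npat* kept their direction and did not pass. *Lsm10*, which did not pass in any, reversed to 0.052 with equal totals outside the rRNA-related loci, 0.21 without shNC-2 and 0.05 without shNAT10-1 (from -0.30 to 0.21 with each library left out). The median log2 fold change of the 6 factors was 0.24 with equal totals and 0.11 to 0.19 with each library left out. The pathway genes counted as higher numbered 17 with equal totals, 5 by limma without the trend and 1 to 9 with each library left out, and those counted as lower 0 to 2. Of the histone genes, 41 to 52 were higher and 0 to 1 lower with each library left out. *Nat10* was between -1.35 and -0.83, and not past the threshold without shNAT10-1 or shNAT10-2. The causes were not tested, but each of these fits has a library less. Over all genes, 88 had an adjusted p under 0.05 by limma, 1582 by limma-voom, 296 at a mean FPKM of at least 1, 151 after quantile normalization, and 0 with either other pseudocount, no filter, no trend, the block or a library left out. Same-numbered libraries did not deviate together (Pearson r 0.00711 over 20116 genes, which are not independent), and with the replicate number as a block 1 factor, 9 pathway genes and 58 histone genes were higher, *Casp8ap2* at 0.62 among them, *Slbp* at 0.19, *Lsm11* at 0.33, *Eri1* at 0.11, *Npat* at 0.03, *Lsm10* at -0.04 and *Nat10* at -1.09. The block changed no call of the 6 factors. Depth limits *Lsm10* most, with 24 to 39 fragments per library.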
